A study of Macaca fascicularis with 64 samples.

Results

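The granins of cynomolgus monkey pancreatic islets were described here as a family of 6 genes, CHGA, CHGB, SCG2, SCG3, SCG5 and VGF, of 21041 macaque genes counted in single cells. They were taken by name. Their RNA was measured by single-cell RNA sequencing with unique molecular identifiers (UMIs, tags by which each captured RNA molecule is counted once) in islets from 16 animals, each sequenced as 4 libraries. The groups were 4 young females, 4 young males, 4 old females and 4 old males, the young animals aged 4 to 6 years and the old ones 18 to 21 years, with no treatment or genetic change named for any of them. Islets came from the tail end of the pancreas, were picked by hand and dispersed, debris was removed by sorting, and single cells were then picked by mouth pipette. Tissue was collected on 16 successive days, so that day of collection and animal cannot be told apart where each day gave 1 animal. The comparisons below asked in which endocrine cells each granin RNA lay, and whether old animals differed from young ones.

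Granins are acidic proteins of the dense-core secretory granule, the vesicle in which endocrine cells store peptide hormones. Chromogranin A (CHGA), chromogranin B (CHGB) and secretogranin II (SCG2) bind calcium, aggregate with prohormones in the trans-Golgi network and are cut into smaller peptides by the same convertases that process proinsulin and proglucagon. Secretogranin III (SCG3) binds CHGA and the cholesterol-rich granule membrane, SCG5 (the 7B2 protein) is the chaperone of the convertase PCSK2, and VGF is a granin-like precursor of several peptides. CHGA is a common blood marker of neuroendocrine tumours.

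Cells were chosen by measured values: a cell entered with over 800 genes and over 10000 UMIs, and its type was set by the highest of the hormone RNAs GCG (α-cells), INS (β-cells), SST (δ-cells) and PPY (PP-cells). Of 6141 cells listed, 5908 were retained, namely 4503 α-cells, 1219 β-cells, 112 δ-cells and 74 PP-cells. An animal gave 178 to 362 α-cells and 11 to 194 β-cells. At least 5 δ-cells came from 11 animals (7 young, 4 old) and at least 5 PP-cells from 6 animals (2 young, both male, and 4 old). The median UMI count per cell was 64894 in α-cells, 74425 in β-cells, 43776 in δ-cells and 45772.5 in PP-cells, and an animal's retained cells summed to between 20719761 and 34053080 UMIs. The types were mixed to differing degrees. The highest hormone had at least 4 times the UMIs of the second in 93.4% of α-cells, but in 31.5% of β-cells, 35.7% of δ-cells and 10.8% of PP-cells, and β-cells held GCG RNA at 13929.7 to 35215 counts per 1000000 UMIs (CPM). PP-cells held GCG RNA at 20724 to 58593 CPM. The summed level of 10 α-cell markers was 59847 to 97848 CPM in α-cells, 21842 to 52736 in β-cells and 15186 to 45308 in δ-cells. In PP-cells it was 29391 to 60298, which overlaps α-cells. Such a sum is weighted to its most abundant markers. Taken singly, 8 of these markers had medians in β-cells of 6.86% to 45.7% (TTR) of the α-cell level, with a median of 11.9%. The summed level of 10 β-cell markers was 4086 to 8451 CPM in β-cells and 187 to 618 in α-cells, and that of 8 δ-cell markers was 2996 to 14267 in δ-cells and 48.4 to 175 in α-cells. The PP label was weakly borne out, since 7 PP-cell markers summed to 302 to 933 CPM in PP-cells and to 286 to 818 in δ-cells, ranges that overlap. Markers of acinar, immune, stellate, endothelial, ductal or Schwann cells stood out in 158 cells. The libraries reused 96 cell barcodes by design, each found in 63 to 64 of the 64 libraries.

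Levels are given as counts per 1000000 (CPM), that is, the UMIs of a gene summed over an animal's cells of a type, per 1000000 macaque UMIs of those cells. The animal was the replicate, and differences between types came from edgeR's quasi-likelihood test on the summed counts with the animal as a block and Benjamini-Hochberg adjustment over 14648 genes, in which all 6 granins passed the filter on low counts. Genes were not compared with each other in level. α- and β-cells differed in 5 of 6 granins, where 25.7% of all genes tested differed. CHGA, SCG2 and SCG5 were higher in α-cells, CHGB and SCG3 in β-cells, and VGF did not pass. The contrast of α- with δ-cells called 4 granins (22.8% of all genes), that of α- with PP-cells 4 (6.32%), that of β- with δ-cells 3 (18%) and that of δ- with PP-cells 5 (8.86%). β- and PP-cells gave 0 calls by edgeR against 15.6% of all genes, with 3 granins at an unadjusted p under 0.05 and 3 called by DESeq2. Some of these contrasts moved with the method. Under DESeq2 the median log2 difference of all genes shifted by -0.47 to -0.50 in the 4 contrasts of α- or β-cells with δ- or PP-cells, but by -0.054 between α- and β-cells. Under edgeR without the animal block those 4 medians also fell, from 0.32 to 0.57 down to 0.10 to 0.14. That between α- and β-cells fell from 0.20 to 0.010. What share scaling had in these shifts was not tested.

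**Figure D1:**
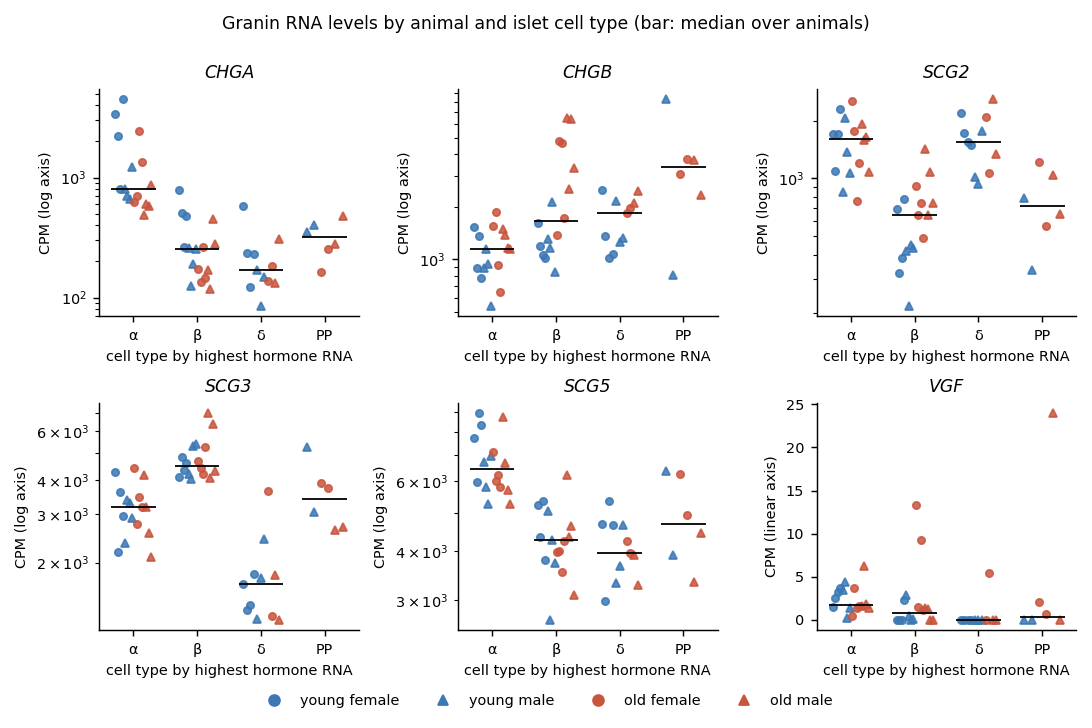
Level of each granin RNA in CPM (vertical axis, logarithmic except for VGF) in α-, β-, δ- and PP-cells (horizontal axis), with 1 point per animal coloured by age and shaped by sex and a bar at the median. CHGA is highest in α-cells and widely spread between animals, CHGB in β-cells of old animals lies mostly above that of young ones, and VGF stays under 25.

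CHGA had the largest log2 difference between α- and β-cells among the granins. Its level in α-cells ran from 486 over a median of 804 to 4478 CPM in 16 animals, and in β-cells from 118 over 256 to 793. In δ-cells it ran from 85.03 over 170 to 582 (11 animals) and in PP-cells from 164 over 317 to 476 (6 animals). CHGA was higher in α- than in β-cells of the same animal in 16 of 16 animals, by 2.17 ± 0.17 on the log2 scale (SE; edgeR adjusted p = 2.49e-15), although the ranges over animals overlap. It was also above δ-cells in 11 of 11 animals (2.70 ± 0.20, adjusted p = 2.89e-15) and above PP-cells in 6 of 6 (1.54 ± 0.25, adjusted p = 3.76e-05). Among the other types the estimates of the test fell in the order PP, β, δ, which the calls did not fully establish. PP-cells exceeded δ-cells in 5 of 5 animals that had both (edgeR adjusted p = 0.000871). β-cells against PP-cells missed the threshold (edgeR adjusted p = 0.0533). The difference of 0.53 between β- and δ-cells had an edgeR adjusted p of 0.0423, which rose to between 0.0525 and 0.103 without any 1 of 8 animals (the 4 young females, young males 1 and 2, and old males 1 and 3). DESeq2 did not call it (0.28, adjusted p = 0.347), nor did edgeR in cells whose highest hormone was at least 4 times the second (1.18, adjusted p = 0.139), where δ-cells of 2 animals remained.

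CHGB had its lowest median in α-cells. Its level in α-cells was 541 to 1882 CPM (median 1153), in β-cells 849.9 to 6497 (median 1672), in δ-cells 1015 to 2499.6 (median 1843) and in PP-cells 810.2 to 8275 (median 3398). It was higher in β- than in α-cells in 14 of 16 animals, the log2 difference of α minus β being -0.91 ± 0.18 (SE; edgeR adjusted p = 7.8e-05). PP-cells were above α-cells in 6 of 6 animals (α minus PP -1.49 ± 0.25, edgeR adjusted p = 6.09e-05). The highest and the lowest PP-cell level both came from young males, 8275 in young male 1 and 810.2 in young male 4. PP-cells were also above δ-cells (δ minus PP -1.06 ± 0.26, edgeR adjusted p = 0.00627), and without young male 1 that difference was -0.67 with an adjusted p of 0.0922. α-cells did not differ from δ-cells past the threshold (edgeR adjusted p = 0.104, 95% interval of the log2 difference -0.81 to -0.046), nor did β-cells (adjusted p = 0.101, 0.074 to 0.89). Both intervals leave out 0 but are not adjusted for the number of genes tested. DESeq2 called the difference between α- and δ-cells (-0.70, adjusted p = 0.0158).

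SCG2, the precursor of secretoneurin, fell into a high pair and a low pair of types. α-cells held 757 to 2522 CPM (median 1612) and δ-cells 938 to 2576 (median 1540.04), whereas β-cells held 216 to 1420.2 (median 644) and PP-cells 332 to 1217 (median 720.0). SCG2 was higher in α- than in β-cells in 16 of 16 animals (1.34 ± 0.15 log2, edgeR adjusted p = 7.35e-10) and higher in δ- than in β-cells in 11 of 11 (β minus δ -1.24 ± 0.18, adjusted p = 4.5e-07). The latter was -0.70 with an edgeR adjusted p of 0.255 at the hormone ratio of 4, with 2 animals in δ-cells. α-cells exceeded PP-cells in 6 of 6 animals (0.98 ± 0.23, edgeR adjusted p = 0.00505) and δ-cells exceeded PP-cells in 5 of 5 (0.87 ± 0.23, adjusted p = 0.0115). Within each pair no difference passed: the 95% interval was -0.23 to 0.44 for α minus δ and -0.79 to 0.059 for β minus PP.

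Of the granins other than VGF, SCG3 and SCG5 varied least between animals in α- and β-cells. SCG3 was 2099 to 4409 CPM in α-cells (median 3184), 4014 to 6983 in β-cells (median 4501), 1238 to 3651 in δ-cells (median 1671) and 2627 to 5269.98 in PP-cells (median 3394). It was higher in β- than in α-cells in 15 of 16 animals (α minus β -0.59 ± 0.11, edgeR adjusted p = 2.385e-05). δ-cells lay below each other type: below α-cells by 0.98 ± 0.13 log2 units (11 of 11 animals), below β-cells by 1.57 ± 0.13 (11 of 11) and below PP-cells (5 of 5, δ minus PP -1.25 ± 0.16), the largest edgeR adjusted p being 2.38e-07. At the hormone ratio of 4 the difference of α- and δ-cells was 0.51 with an edgeR adjusted p of 0.168. Neither α- nor β-cells differed from PP-cells past the threshold (edgeR adjusted p = 0.301 and 0.174).

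SCG5 was 5256 to 8937 CPM in α-cells (median 6457), 2673 to 6214 in β-cells (median 4252), 2981 to 5348 in δ-cells (median 3944) and 3341 to 6392 in PP-cells (median 4692). It was higher in α- than in β-cells in 16 of 16 animals (0.69 ± 0.08 log2, edgeR adjusted p = 2.83e-09) and higher than in δ-cells in 11 of 11 (0.90 ± 0.10, adjusted p = 2.72e-10). Its convertase client PCSK2 was higher in α-cells by 2.50 log2 units. β- and δ-cells did not differ past the threshold (edgeR adjusted p = 0.12), and δ-cells were below PP-cells (δ minus PP -0.52 ± 0.13, adjusted p = 0.0044). The call of SCG5 between α- and PP-cells (0.38 ± 0.12, edgeR adjusted p = 0.0496) was lost without any 1 of 13 of the 16 animals, all but young males 1 and 3 and old female 1, with adjusted p up to 0.346, and under DESeq2 (0.15, adjusted p = 0.525).

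VGF RNA was near the limit of detection. All α-cells together held 778 VGF UMIs, all β-cells 294, the δ-cells of 11 animals 3, all of them in old female 2, and the PP-cells of 6 animals 7. By animal the level was 0.169 to 6.22 CPM in α-cells (median 1.74) and 0 to 13.4 in β-cells (median 0.809), with 6 of 16 animals at 0 in β-cells. A sum of 3 counts over these δ-cells corresponds to 0.605 CPM, and the ratio of the pooled α- to the pooled δ-cell level was 3.98, with an exact 95% interval of 1.36 to 19.4 that covers counting error only. After each cell was thinned to 10000 UMIs, 1.501% of α-cells and 0.835% of β-cells had a VGF UMI, against 3.27% of the 153 cells with markers of non-endocrine types that were deep enough. Those 153 cells were typed by a hormone as well, and their share has a 95% interval of 1.07% to 7.46%. Before thinning the share was 5.06% in cells with non-endocrine markers and 5.04% in α-cells. The shares therefore do not tell VGF RNA of endocrine cells from background. The edgeR call of VGF between α- and δ-cells (adjusted p = 0.0376) rests on those 3 UMIs. It was lost under DESeq2 (adjusted p = 0.187) and without any 1 of 8 animals (the 4 young females, young males 1 and 2, old female 1 and old male 4), with adjusted p up to 0.0724. Between α- and β-cells the edgeR adjusted p was 0.103, and it was 0.0205 without old female 1 and 0.0482 without old female 3, the 2 animals with the highest β-cell level. It was 0.00508 at the hormone ratio of 4.

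RNA of the other hormones was found in each type. GCG helped to set the types, so its share is given as a description only. In β-cells CHGA stood at a median of 23.1% of its level in α-cells of the same animal (10.6% to 78.9% over 16 animals), and GCG at 27.7% (21.01% to 46.9%). The medians of 8 α-cell markers ran from 6.86% (FAP, a membrane peptidase) to 45.7% (TTR, transthyretin), with a median of 11.9%. In the 384 β-cells in which INS was at least 4 times the next hormone, from 11 animals, CHGA was at 17.6%, GCG at 20.4% and the median of the markers at 5.61%. SCG2 stood at 40.5% and SCG5 at 65.6%, within or above the range of those markers, whereas CHGB at 171% and SCG3 at 161% were above the α-cell level. How much of the CHGA in β-cells came from α-cell RNA was not tested. The share of cells with a CHGA UMI does not set cells with non-endocrine markers apart. Those cells, typed by a hormone all the same, carried one in 86.3% of cases after thinning, against 94.8% in α-cells and 73.4% in β-cells. Before thinning the CHGA shares were 96.8%, 98.7% and 96.4%, at median depths of 54591, 65282.5 and 74425 UMIs. For CHGB, SCG2, SCG3 and SCG5 the thinned share in cells with non-endocrine markers was 88.9% to 100%.

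**Figure D2:**
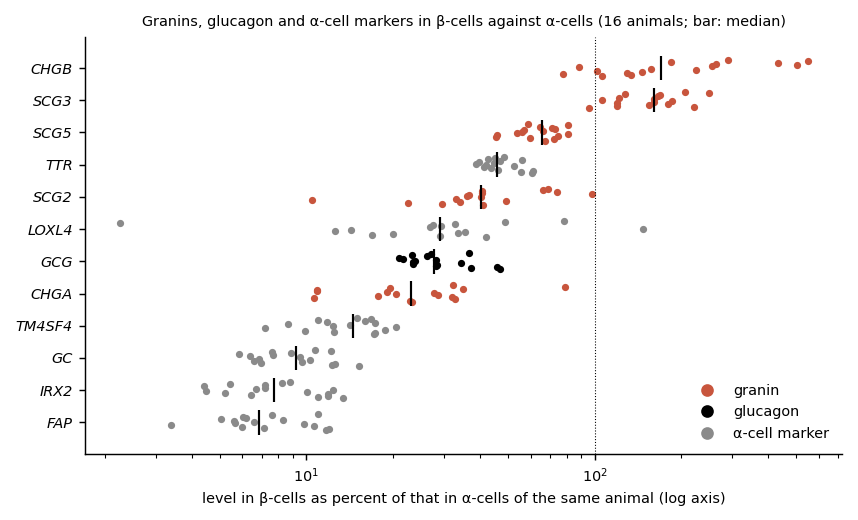
Level in β-cells as a percentage of the level in α-cells of the same animal (horizontal logarithmic axis) for 5 granins, glucagon (GCG) and 6 α-cell markers that were above 0 in β-cells of every animal, with 1 point per animal and a bar at the median. CHGA has a median of 23.1% and GCG, which helped to set the types, of 27.7%, while CHGB (171%) and SCG3 (161%) lie to the right of the dotted line at 100%.

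In α-cells CHGA varied more between animals than between libraries of an animal. The SD of the log2 level was 0.99 between animals and 0.27 between the 4 libraries of an animal, and the highest animal had 9.22 times the level of the lowest. In β-cells the SDs of CHGA were 0.81 between animals and 0.50 between libraries, with a widest range within an animal of 2.40 log2 units. For CHGB in β-cells the corresponding values were 0.99, 0.32 and 7.64 times, the libraries being those with enough β-cells (56 libraries of 15 animals). SCG5 in α-cells spread by 0.25 between animals and 0.11 between libraries, and SCG3 in β-cells by 0.24 and 0.15. The widest gap within an animal for CHGA in α-cells was 1.33 log2 units, in young male 3, where 1 library of 66 cells stood at 1188 CPM and the others at 473 to 502.

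**Figure D3:**
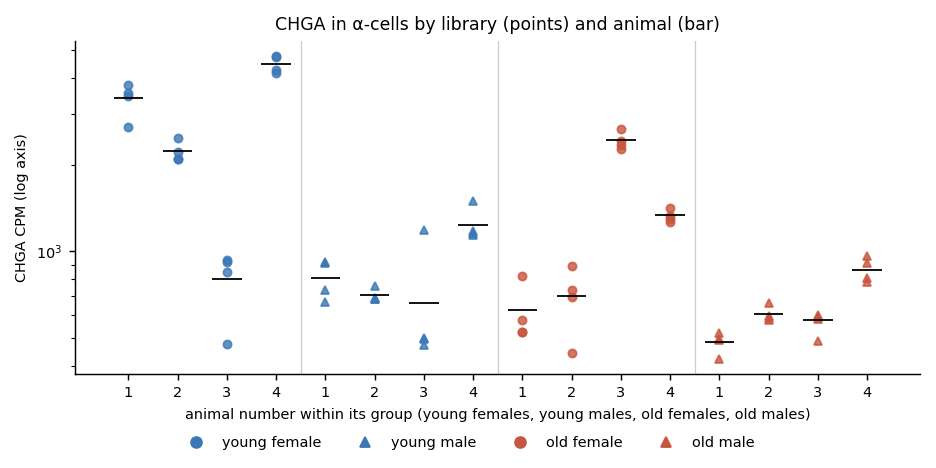
CHGA level in α-cells in CPM (vertical logarithmic axis) for each of 64 libraries (points) and for each of 16 animals (bars), the animals ordered by group. The libraries of an animal lie close together except in a few animals such as young male 3, and the 2 highest animals are young females.

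Old and young animals were then compared within each cell type with edgeR, with sex as a covariate. In α-cells 0 of 6 granins were called, as 0% of 13486 genes were, with 1 granin at an unadjusted p under 0.05 and 0 called by DESeq2. CHGA was that granin. In young females its α-cell level was 3411, 2230.4, 801 and 4478 CPM, in young males 808, 704, 663 and 1232, in old females 626, 703, 2429.7 and 1340.3, and in old males 486, 605, 577 and 862. Young females 1, 2 and 4 and old female 3 were high, and the 4 groups overlapped. The log2 difference of old minus young was -0.76 ± 0.32 (edgeR p = 0.0258, adjusted p = 0.716). CHGB (0.34), SCG2 (0.025), SCG3 (0.042), SCG5 (-0.11) and VGF (-0.17) had log2 differences with an edgeR adjusted p of 0.824 or more. CHGB in α-cells was 895, 1151, 946 and 541 CPM in young males and 1498, 1381, 1167 and 1155 in old males. The males did not overlap and the females did, but how many of all genes separate so was not counted. No granin passed in α-cells of males (lowest edgeR adjusted p = 0.997).

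In β-cells CHGB was the 1 granin called, and it rose with age. Its β-cell level was 1619, 1198, 1064 and 1013 CPM in young females and 1309.8, 1169, 2125 and 849.9 in young males, against 1380.2, 4796, 4674 and 1725 in old females and 6497, 2539.99, 6413 and 3346 in old males. Old males lay above every young male, and old females 2, 3 and 4 lay above every young female while old female 1 lay among them. Over both sexes the ages overlapped, young male 3 lying above old females 1 and 4. How many of all genes separate the males so was not counted. The difference of old minus young was 1.57 ± 0.28 log2 units, 2.97-fold (edgeR adjusted p = 0.0256), and 8 of 8 old animals were above the young median. Across the genome 5 of 11101 genes were called (0.045%), CHGB being the fourth by p. The other 4, chosen after their values were seen, were IGFBP4, KIF26A and SERPINA1, which rose, and an unnamed gene, ENSMFAG00000003105, which fell. The size of the CHGB difference was steady, from 1.43 to 1.71 log2 units with any 1 animal left out, but the call was not. It was lost without any 1 of 10 animals (young females 2, 3 and 4, young males 1, 2 and 4, old females 2 and 3, old males 1 and 3), with adjusted p from 0.0536 to 0.0952. DESeq2 called CHGB as well (adjusted p = 5.21e-05), and over all alternatives that kept every animal the adjusted p ran from 5.21e-05 to 0.897. The highest came from an exact test (unadjusted p = 0.0014) that called 0 of 11102 genes.

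Several other measures in β-cells had medians that differed between ages. The summed level of the 10 β-cell markers in β-cells was 4086 to 7790.4 CPM in young animals (median 5598) and 4983 to 8451 in old ones (median 7341), INS had medians of 66186 and 55683, and GCG had medians of 24377 and 18472. INS and GCG were not called by age, and the marker sums were not tested. In β-cells whose INS was at least 4 times the next hormone, from 4 young and 7 old animals, the CHGB difference was as large, at 2.04 log2 units (edgeR adjusted p = 0.0947). The acinar and immune marker sums in β-cells had medians of 2.99 and 34.0 in young animals and 3.23 and 25.04 in old ones, and without cells bearing non-endocrine markers the CHGB difference was 1.57 (adjusted p = 0.0157). The part of the markers in the result was not otherwise tested. In bulk sums of this kind more CHGB RNA per cell and more cells with high CHGB RNA look alike, and which of these held was not tested. The single cells are given as a description, at equal depth, so that CHGB is read as a share of a cell's UMIs. With each cell thinned to 10000 UMIs, the median β-cell of an animal held 6.5 to 16 CHGB UMIs in young animals (median 10.5) and 11 to 64 in old ones (median 28.3), the 10th percentile of cells had a median of 3.4 in young and 10.8 in old animals, and the 90th percentile 20.6 and 64.2. Each of these percentiles had a higher median in old animals, with ranges that overlap.

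SCG2 in β-cells passed an unadjusted p of 0.05 for age but not the adjustment, and CHGA passed neither. SCG2 was 696, 323, 383 and 781 CPM in young females and 420.1, 216, 451 and 432 in young males, against 909, 644, 744 and 487 in old females and 1420.2, 644, 1081 and 743 in old males. Again the males did not overlap and the females did, and the share of all genes so separated was not counted. No granin passed in β-cells of males (lowest edgeR adjusted p = 0.142). The difference was 0.85 ± 0.24 log2 units (edgeR p = 0.00208, adjusted p = 0.45). CHGA was 793, 511, 263 and 477 in young females and 259, 125, 190.4 and 253 in young males, against 174, 134, 264 and 146 in old females and 169, 118, 455 and 279 in old males, a difference of -0.62 ± 0.33 (edgeR p = 0.0698, adjusted p = 0.923). SCG3 (0.12 ± 0.14) and SCG5 (-0.011 ± 0.17) stayed within their SE, and VGF did not pass the filter on low counts. The age difference of CHGB was 1.15 ± 0.28 log2 units larger in β- than in α-cells of the same animals, and that of SCG2 0.85 ± 0.26 larger. Neither passed as a difference between types (edgeR adjusted p = 0.579 and 0.662), 0% of 15441 genes and 0 of 6 granins being called in it (2 at an unadjusted p under 0.05, 0 by DESeq2). CHGB did pass without old female 1 (1.38, edgeR adjusted p = 0.0285).

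**Figure D4:**
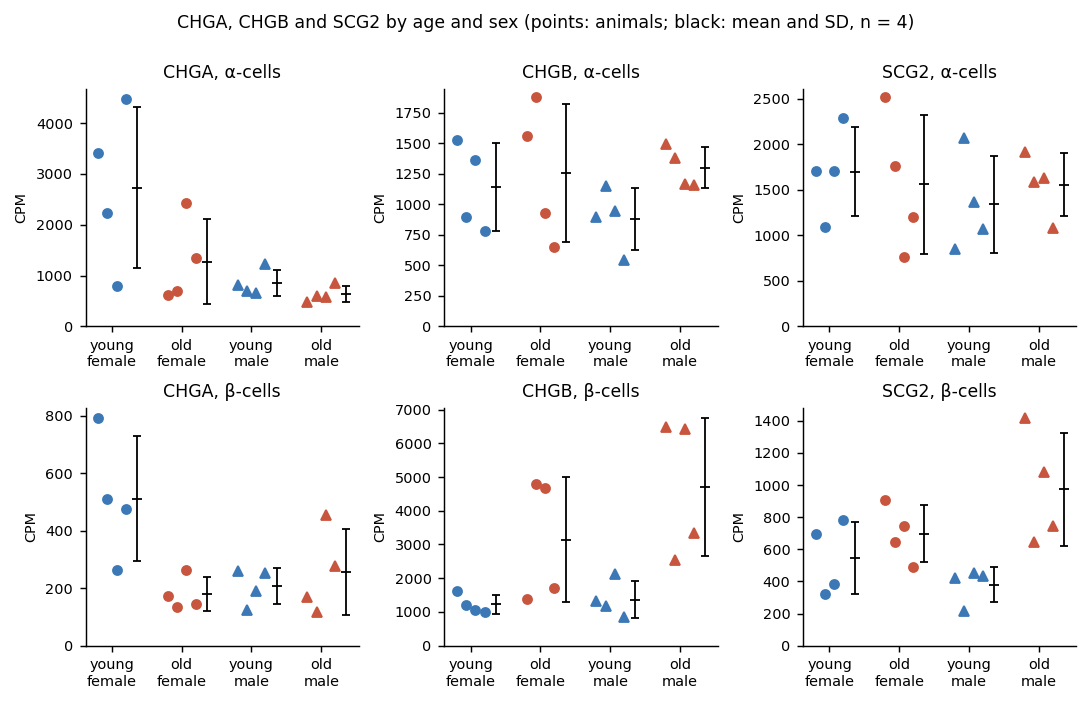
CHGA, CHGB and SCG2 in CPM (vertical axes from 0) in α-cells (upper row) and β-cells (lower row) by age and sex, with 1 point per animal and the mean and SD of 4 animals in black. In β-cells CHGB and SCG2 of old males lie above all young males, and CHGA of young females lies between 263 and 793. How many of all genes separate the males so was not counted.

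Within each sex 4 old and 4 young animals were compared. For CHGB in β-cells the SE was 0.40 in each sex, against 0.28 over both. Old and young females differed in 0 granins in α-cells (0% of 14146 genes; 1 unadjusted, 0 by DESeq2) and in 0 in β-cells by edgeR (0% of 11693 genes), with 2 at an unadjusted p under 0.05 and 1 called by DESeq2. In β-cells of females CHGA was lower in the old by 1.55 ± 0.36 log2 units (edgeR adjusted p = 0.381, DESeq2 0.0177) and CHGB was higher by 1.35 ± 0.40 (adjusted p = 0.678). In males 0 granins were called in α-cells (0.0141% of genes; 0 unadjusted, 0 by DESeq2) and 0 in β-cells by edgeR (0.0257% of genes; 2 unadjusted, 2 by DESeq2). In β-cells of males CHGB was higher in the old by 1.79 ± 0.40 (edgeR adjusted p = 0.145, DESeq2 0.00538) and SCG2 by 1.39 ± 0.31 (adjusted p = 0.142, DESeq2 0.00667), with CHGA at 0.31 ± 0.35. The difference between the sexes in the age effect was tested itself. It called 0 granins in α-cells (0.00707% of genes; 0 unadjusted, 0 by DESeq2) and 0 in β-cells (0% of genes; 2 unadjusted, 0 by DESeq2). For CHGA in β-cells it was -1.86 ± 0.50 log2 units, females minus males (edgeR p = 0.001115, adjusted p = 1.00).

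Females and males, with age as a covariate, differed in 0 granins in α-cells by edgeR (0% of 13486 genes; 1 unadjusted, 1 by DESeq2) and in 0 in β-cells (0% of 11101 genes; 0 unadjusted, 0 by DESeq2). The granin called by DESeq2 was CHGA in α-cells, at 626 to 4478 CPM in females (median 1785) and 486 to 1232 in males (median 683), ranges that overlap. It was higher in females by 1.39 ± 0.32 log2 units (edgeR adjusted p = 0.355, DESeq2 0.038). In β-cells the CHGA difference was 0.43 ± 0.32.

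δ- and PP-cells gave little information on age. In δ-cells 0 of 5 tested granins were called (0% of 7405 genes; 0 unadjusted, 0 by DESeq2), with log2 differences from -0.16 to 0.40. CHGB in δ-cells was 1015 to 2499.6 CPM in 7 young animals (median 1336) and 1843, 1978, 2097 and 2458 in 4 old ones, within the young range. In PP-cells 0 of 5 were called (0% of 6568 genes; 0 unadjusted, 0 by DESeq2), with differences from -0.54 to 0.70 in a fit of 2 young and 4 old animals. Both young animals were male, so with sex as a covariate these differences rest on 2 young and 2 old males.

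**Figure D5:**
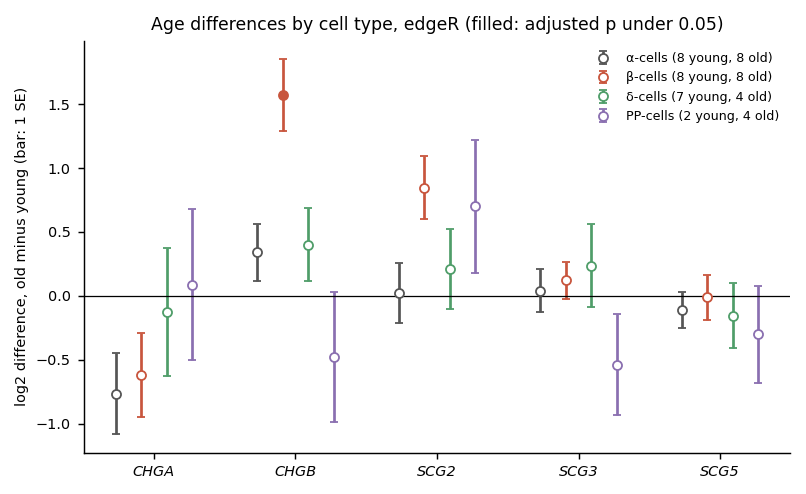
Log2 difference of old minus young by edgeR with its SE (vertical axis) for 5 granins in α-, β-, δ- and PP-cells. The filled point, CHGB in β-cells at 1.57, is the difference with an adjusted p under 0.05, and the δ- and PP-cell differences lie between -0.54 and 0.70.

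Granins were also followed together. Across animals, 20 pairs were computed (10 pairs of 5 granins in α- and in β-cells), and 0 passed the adjustment by Pearson's r or by Spearman's rho. The strongest was CHGB with SCG2 in β-cells, r = 0.67 (permutation p = 0.0039, adjusted 0.078) and rho = 0.60 (permutation p = 0.0168, adjusted 0.195) over 16 animals. It was 0.46 without the 2 animals farthest from the median of CHGB, 0.12 within the 8 young and 0.55 within the 8 old animals, below the pooled value in both. Without young female 4 the pair passed (r = 0.76, adjusted 0.0204), and CHGB with SCG2 in α-cells did too (r = 0.68, adjusted 0.0486). Without old female 1 the β-cell pair passed as well (r = 0.74, adjusted 0.0268). Across single cells within an animal, thinned to equal depth, SCG3 and SCG5 were the pair that varied most together, with a median rho of 0.37 in α-cells (positive in 16 of 16 animals) and 0.34 in β-cells (15 of 15). CHGB and SCG2 had a median rho of 0.17 in α-cells and 0.24 in β-cells. CHGA was nearly unrelated to CHGB, at 0.077 and -0.057. These are descriptions over cells of shared libraries.

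The rest of the granule machinery was read from 4 lists of 48 genes, 44 of them in the files. Between α- and β-cells 43 were tested, 14 were higher in α-cells, 7 lower and 22 not called, where 2654 of all 14648 genes were higher and 1105 lower (25.7% called), and the list median was 0.12 log2 units against 0.20 for all genes. Both genes listed as granin kin (PCSK1N and GNAS) were higher in α-cells, in counts per gene that do not separate the transcripts of a gene. Of 6 prohormone-processing genes, 2 were higher and 3 lower, with PCSK2 at 2.50 and PCSK1, the other prohormone convertase, at -4.89. Of 22 genes of the granule membrane and exocytosis, 9 were higher and 3 lower, among them the vesicle glycoprotein SV2A at 3.65 and the Rab effector RPH3AL at 2.35, and SYT13, a synaptotagmin, at -1.74. Of 13 genes of granule formation and sorting, 1 was higher and 1 lower, the latter being the priming factor CADPS2 at -3.29. By age, 0 of the 43 tested in α-cells and 0 of the 42 tested in β-cells were called by edgeR, with 3 and 4 at an unadjusted p under 0.05, where 6.82% and 5.52% of all genes tested were.

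Genes whose level followed a granin most closely over the 16 animals were ranked by Pearson's r of the log2 level, as a description. For CHGA in α-cells they were GPBAR1 (r = 0.82, rho = 0.82), ND1 (0.81, 0.62) and ENSMFAG00000000594 (0.80, 0.73), out of 8052 genes, and the r of GPBAR1, a bile acid receptor, was 0.85 in young and 0.80 in old animals. For CHGB in β-cells they were HTATIP2 (0.79, 0.78), CNST (0.77, 0.84) and TLCD2 (0.74, 0.77), out of 7913 genes. CHGB itself differed by age there, and within young and within old animals the r was 0.71 and 0.93 for HTATIP2, 0.62 and 0.51 for CNST, and 0.50 and 0.61 for TLCD2. CNST encodes consortin, a trans-Golgi cargo receptor. SERPINI1, the serpin neuroserpin, followed SCG3 in β-cells at r = 0.84 and rho = 0.90, with 0.87 in young and 0.89 in old animals, followed by TMEM9B (0.73, 0.69) and SMIM14 (0.72, 0.56). SCG2 in α-cells was followed by MYDGF (r = 0.79) and SRPRB (r = 0.78), and SCG5 in α-cells by TPD52L1, ENSMFAG00000044484 and DSTN (0.75 to 0.80). For VGF, at its low counts, TMEM14B, NUDT22 and RNF113A stood at 0.82 to 0.84.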

How the data were processed

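Single-cell libraries were made with a modified STRT-seq protocol from 16 cynomolgus monkeys. The authors trimmed reads, aligned them to Macaca_fascicularis_5.0 with TopHat 2.0.12, assigned uniquely mapped reads to genes with HTSeq and counted each UMI once, and the submitters' notes also name CASAVA 1.8. The deposited values are raw UMI counts per gene and cell, with 95 spike-in rows (5.41% of UMIs) that were left out here. SCG2 lies among 14 rows after the spike-ins, whose making is not given in the sources used here. The study's further filter on the share of reads mapped was not applied, and no doublet caller was run.

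Counts were summed per animal and type with at least 5 cells and tested with edgeR 4.0.16 (TMM, filterByExpr, quasi-likelihood, Benjamini-Hochberg, threshold 0.05) in R 4.3.3. Type contrasts had the animal as a block, and age contrasts had sex as a covariate. DESeq2 1.42.0 was an alternative, beside those named in the closing section, and the scripts were tested on simulated data. A replicate is an animal, and each animal's libraries were summed. Permutation tests used 100000 resamples and were two-sided. The members, gene lists and tests were chosen with earlier results of these data known. Named genes were all members, of the granule lists every gene called by age and the 3 largest differences each way between α- and β-cells, and the 3 genes most like each member, among those of at least 10 counts per 1000000, in whichever of α- and β-cells had its higher mean. For SCG2, 1 of these 3 genes is not reported here. Depth was 20719761 to 34053080 UMIs per animal.

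The animal numbers of the groups are shared by the labels but do not pair the animals, which are different individuals.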

Additional observations from a re-analysis of the deposited data

Results flagged for a closer look

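SCG2 in β-cells of young male 2 stood at 216 counts per 1000000 UMIs, away from 420.1 to 451 in the other 3 young males, a gap of 0.867 of the group's whole range. It was the 1 value so far from its group among 45 groups of members and types examined. Chance alone gives about 1 in 20, so 1 in 45 is no more than chance gives.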

How the results depend on the processing

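Of the granin calls between α- and β-cells and by age in α-cells, all kept their side of the threshold under every alternative except VGF between α- and β-cells. Counts of granins called that changed by over 1.5 times were these. With at least 10 cells per animal and type, which leaves PP-cells of 1 animal, assumed to vary like the rest, 4 became 0 between α- and PP-cells and 5 became 1 between δ- and PP-cells. The exact test on means of log2(CPM/10 + 1) gave 0 in both. It could not pass between δ- and PP-cells, where its smallest p is 0.0625. Between α- and PP-cells its smallest p is 0.03125, and 0 of 14648 genes passed the adjustment, so its loss there carries little information. Without the animal block δ- and PP-cells gave 3, and thinning gave 5 between β- and δ-cells in place of 3. The hormone ratio of 4 gave 2 between α- and δ-cells in place of 4 and 1 between β- and δ-cells in place of 3, with 2 animals in δ-cells. Between β- and PP-cells, in place of 0, DESeq2 gave 3, no filter 2, leaving out cells with non-endocrine markers 2, and thinning, over 2000 genes with 20000 UMIs, and leaving out the deepest 5% of cells 1 each. By age in β-cells 1 became 0 with INS at least 4 times the next hormone, without the deepest 5% of cells (CHGB 1.47, edgeR adjusted p = 0.112) and by the exact test (1.54, adjusted p = 0.897). The exact test gave CHGB an unadjusted p of 0.0014 there and called 0 of 11102 genes. DESeq2 gave 1 by sex in α-cells, 1 by age in females and 2 in males in β-cells, and no filter and the hormone ratio of 4 gave 1 in β-cells of males. Changes of 1 granin, with every animal kept, were 6 in place of 5 between α- and β-cells under 3 alternatives, 3 in place of 4 between α- and δ-cells under 6 (the exact test among them), 3 in place of 4 between α- and PP-cells under 6 (DESeq2 among them), 2 in place of 3 between β- and δ-cells under 6 (both among them) and 4 in place of 5 between δ- and PP-cells under 1. The cause was not tested.

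Leaving out each animal gave 0 to 2 calls between β- and PP-cells, 0 to 1 by age in β-cells, 0 to 1 for β- minus α-cells and 0 to 2 related pairs. Between β- and PP-cells, 2 calls appeared without old male 1 or 3, and 1 without old male 2, old female 4, young male 1 or 2, or young female 2, 3 or 4. Signs turned for SCG5 by age in β-cells (0.39 with the hormone ratio of 4, 0.00174 thinned), for SCG2 by sex in β-cells (-0.26 and -0.053) and for SCG2 by age in β-cells of females (-0.32 with that ratio). Some differences between types that were not called turned as well, among them, under DESeq2, SCG2 between α- and δ-cells, -0.16 in place of 0.11, and SCG5 between β- and δ-cells, -0.057 in place of 0.21. With animals left out, the ranges that crossed 0 were -0.085 to 0.16 (SCG2), -0.058 to 0.12 (SCG3) and -0.60 to 0.044 (VGF) by age in α-cells, -0.14 to 0.052 (SCG5 by age in β-cells), -0.12 to 0.19 (SCG2 by sex in β-cells), -0.19 to 0.34 (CHGB) and -0.43 to 0.057 (SCG2) in α-cells of females, -0.11 to 0.51 (CHGA in β-cells of males) and -0.17 to 0.25 (CHGA, β- minus α-cells).

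Same-numbered animals correlated at -0.068 to 0.18 in α-cells (2 of 8 over 0.1) and -0.15 to 0.12 in β-cells (1 of 8), so the number does not pair them. With the animal number as a replicate block, CHGB by age in β-cells was 1.46 (edgeR adjusted p = 0.0159), no granin call by age changed, and 11 genes in β-cells and 3 in α-cells were called in place of 5 and 0. No replicate block could be fitted for PP-cells.

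Across all genes, DESeq2 called 41 genes by age in β-cells in place of 5 and 26 in α-cells in place of 0, no filter 21 in β-cells, the hormone ratio of 4 called 1 and leaving out the deepest cells 3. The hormone ratio of 4 left no animal with 5 PP-cells, so contrasts of PP-cells and age in PP-cells could not be fitted under it, nor age in δ-cells. Few δ- and PP-cells limit those contrasts.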
